A study of Mus musculus with 19 samples.

Results

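The heat shock and cold-inducible genes described here are 10 genes taken by symbol from the corneal and conjunctival expression tables of a calorie restriction study in mice: the cold-inducible RNA-binding proteins *Cirbp* and *Rbm3*, the cytosolic heat shock genes *Hspa1a*, *Hspa1b*, *Hsph1*, *Dnajb1*, *Hsp90aa1*, *Hspa8* and *Hspb1*, and the endoplasmic reticulum chaperone *Hspa5*. All 10 were among the 24557 features that each table lists, and all 10 passed the filter on low values in both tissues, a mean of at least 10 normalized read counts. The mice were female C57BL/6J by the study's methods (C57BL/6 in the labels), with no transgene or deletion in any group. They were either given food at will (ad libitum, AL) or held to calorie restriction (CR), a ration cut in steps and offered each day shortly before the dark phase. The cornea libraries (5 AL and 5 CR) were made from scraped corneal epithelium, and the conjunctiva libraries (4 AL and 5 CR) from excised tissue. The sample titles carry 6M and 50W in every group, and the series text calls the mice young. By the study's methods adult mice were on the diets for some months and were middle-aged at collection. Those methods describe more than one cohort, with different chow, and mice housed together in pens, and the labels do not say which cohort or pen a library came from. In the second cohort the chow also differed by diet, with more vitamins and micronutrients for the CR mice. Chow and ration cannot be told apart in such mice. The clock time of collection was not found in the sources used here, only females were studied, and every value is a mixture of the cell types in a scrape or an excised piece. In such bulk samples fewer cells of a type and less RNA per cell cannot be told apart.

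Heat shock proteins are chaperones that hold or refold unfolded proteins. Their genes are driven by heat shock factor 1 (HSF1) when cells meet heat, oxidants or other proteotoxic stress, and the HSP70 proteins, their J-domain partners, the HSP110 exchange factors, HSP90 and the small heat shock proteins act as a relay. *Hspa5* encodes BiP, the HSP70 of the endoplasmic reticulum, and follows the unfolded protein response instead. *Cirbp* and *Rbm3* are small glycine-rich RNA-binding proteins that rise when temperature falls slightly, and both are known to follow the daily rhythm of body temperature. The ocular surface is cooler than the body core and exposed to air.

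*Cirbp* rose under CR in the corneal epithelium, by 2.17-fold, and the 8 heat shock genes did not pass the test in either tissue. In the conjunctiva *Cirbp* was 1.81-fold higher under CR, a change that did not pass the adjusted threshold. Its close relative *Rbm3* did not pass in either tissue. In a wider cytosolic heat shock list, *Dnajb4* and *Fkbp5* were called higher in the cornea, and *Cryab* passed the adjusted p there with a change under 1.5-fold. The median log2 change of that list in the cornea was −0.09, with 15 genes higher and 18 lower by sign.

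The printed sequences show the stretch before the annotated start site of the member that rose and of the stress-inducible HSP70 pair. They come from RefSeq promoters of the mouse build GRCm38.p6, each ending just before the RefSeq start site or before the first base inside the window that GENCODE M21 counts as an exon of the gene. RefSeq promoters were found for 7 of the members, and none for *Rbm3*, *Hsp90aa1* or *Hspa8*. RefSeq gives *Cirbp* a pair of promoters. The printed one lies at chr10:80167589-80167777 on the plus strand, in an intron of a longer GENCODE transcript of *Cirbp* that starts further upstream, and it holds the capitals marked here. The other, at chr10:80167921-80168170, held no match to any motif searched and is not printed. The *Hspa1a* stretch lies at chr17:34972157-34972406 and the *Hspa1b* stretch at chr17:34959239-34959488, both on the minus strand. Capitals mark matches on either strand to TCCCCGCC, the mild-cold element described for *Cirbp*, and to GAANNTTC, a pair of heat shock element units.
Cirbp: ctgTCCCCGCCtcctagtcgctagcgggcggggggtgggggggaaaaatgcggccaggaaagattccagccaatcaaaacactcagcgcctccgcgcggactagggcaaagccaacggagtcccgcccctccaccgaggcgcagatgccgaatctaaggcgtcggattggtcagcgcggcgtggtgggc
Hspa1a: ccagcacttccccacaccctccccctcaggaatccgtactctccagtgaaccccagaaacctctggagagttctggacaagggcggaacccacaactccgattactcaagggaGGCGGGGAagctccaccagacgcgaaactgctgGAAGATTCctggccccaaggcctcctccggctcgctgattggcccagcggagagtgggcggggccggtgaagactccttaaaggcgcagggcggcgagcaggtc
Hspa1b: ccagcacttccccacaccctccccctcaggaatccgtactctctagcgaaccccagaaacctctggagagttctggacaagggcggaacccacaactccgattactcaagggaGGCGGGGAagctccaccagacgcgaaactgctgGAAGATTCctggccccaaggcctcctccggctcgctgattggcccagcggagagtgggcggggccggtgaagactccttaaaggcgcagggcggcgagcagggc
Over 250 bases the *Hspa1a* and *Hspa1b* stretches differed at 3 positions, an identity of 98.8%.

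Motifs were searched on both strands in the full promoter windows, 250 bases before and 50 after the start site. The letters TCCCCGCC stood in 5.38% of the 32851 promoters, and among the members in *Cirbp*, *Hspa1a*, *Hspa1b* and *Dnajb1*. Its first base was 247 bases before the first RefSeq start site of *Cirbp* and 137 before that of *Hspa1a* and *Hspa1b*. GAANNTTC stood in 7.86% of promoters and was found once each in *Hspa1a* and *Hspa1b*, at 104 bases before the start site, in *Hspb1* at 117 and 97 bases before it, and in *Hsph1*. TTCNNGAA stood in 8.52% of promoters and among the members in *Hsph1* alone, where one of its matches overlapped the GAANNTTC match. The run of 3 alternating units, searched as a longer word, stood in 0.603% of promoters and again among the members only in *Hsph1*. The endoplasmic reticulum stress element, CCAAT and CCACG with 9 free bases between them, stood in 0.119% of promoters and was found in *Hspa5*, 65 bases before its start site. A match is a run of letters in a window and says nothing on binding.

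Cornea libraries held 10354125 to 14681223 counted reads and conjunctiva libraries 10726717 to 14433441, so a count of 0 allowed up to 2.27 to 3.37 normalized counts (3 reads). The members lay far above that, with 72 reads for the lowest library, *Rbm3* in cornea AL 5. Most markers of the labelled tissues were higher in their own tissue, a description across tables scaled apart. The corneal keratin *Krt12* averaged 306448 (AL) and 266769 (CR) normalized counts in the cornea and 3006 and 2013 in the conjunctiva. The goblet cell mucin *Muc5ac* averaged 12.9 and 2.95 in the cornea and 4515 and 4066 in the conjunctiva. In the corneal epithelium list *Krt14* alone went the other way, at 6132 and 5940 in the cornea and 13634 and 13232.5 in the conjunctiva. In the conjunctival epithelium list *Krt13* alone did, at 27224 and 28746.5 in the cornea and 21937 and 23180 in the conjunctiva. The goblet cell marker *Clca1* was near 0 in both tissues. The share of genes with 0 reads, a mark of library complexity, was 40.5% ± 2.70 (SD, n = 5) in AL and 44.4% ± 3.06 (n = 5) in CR corneas (exact permutation p = 0.0714, two-sided). It was 35.3% ± 1.90 (n = 4) and 37.1% ± 2.29 (n = 5) in the conjunctiva (exact permutation p = 0.246). Summed leukocyte markers were lower in every CR conjunctiva than in every AL conjunctiva, with 8 of 8 tested markers lower by sign (2437 to 3276 against 3720 to 4943, exact permutation p = 0.00794), and summed fibroblast markers were lower on average (37829 against 56100, p = 0.0397, exact). In the cornea 5 of the 6 tested leukocyte markers were lower by sign, and their sum was 105 to 219 in CR and 150 to 391 in AL (exact permutation p = 0.0476). The sum of 11 lacrimal gland markers ran from 228 to 4706 in AL and from 304 to 715 in CR corneas. The part of these cells in the values of the members was not tested. All 8 corneal epithelium markers were measured in the cornea, and their sum was 648087 in AL and 632434 in CR (exact permutation p = 0.770).

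A gene was called changed at an adjusted p under 0.05 with a fold above 1.5, the thresholds of the study. Changes and their standard errors (SE) are on the log2(normalized count + 1) scale, CR minus AL, from limma with Benjamini-Hochberg adjustment over all tested genes. In the cornea 1 of 10 members was called, against 1.22% of the 12278 genes tested, and the same gene alone had an unadjusted p under 0.05, against 18.1%. In the conjunctiva 0 of 10 were called, against 0.359% of 13929 genes (also 0 by limma voom on the recovered reads), and 2 members, *Cirbp* and *Hspa5*, had an unadjusted p under 0.05, against 9.4% of genes. The 10 members had a median change of −0.04 in corneas and −0.11 in conjunctivas, beside −0.03 and −0.02 over all genes tested. In the cornea 4 members were higher and 6 lower by sign, and in the conjunctiva 3 were higher and 7 lower.

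**Figure D1:**
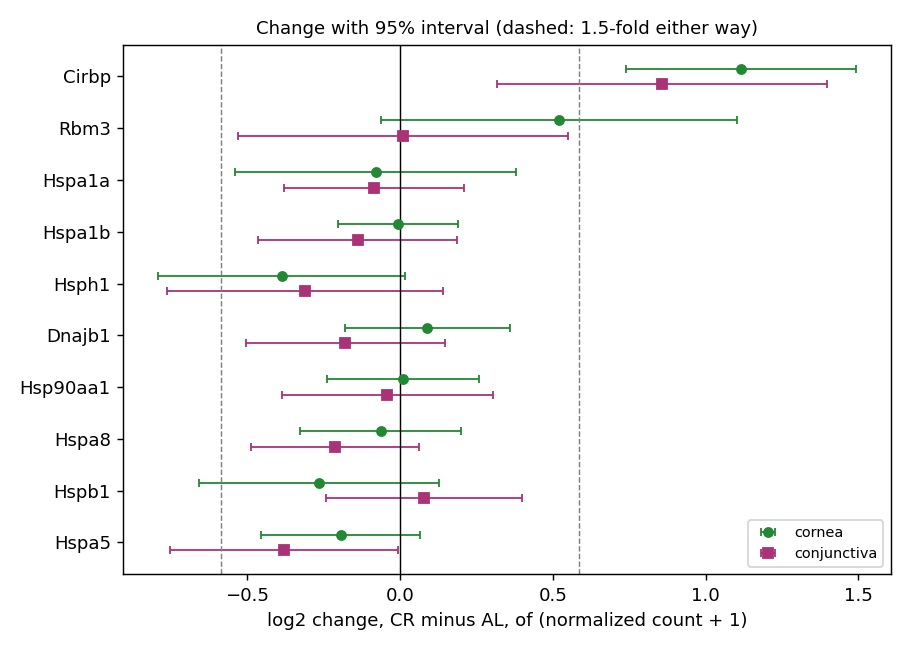
Change under CR of each of the 10 genes in the cornea (circles) and the conjunctiva (squares), as the log2 change of (normalized count + 1), with the 95% confidence interval of the limma fit as the bar. The dashed lines mark a 1.5-fold change either way, and *Cirbp* is the gene whose interval lies above 0 in both tissues.

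*Cirbp* encodes the cold-inducible RNA-binding protein, which stabilizes and helps process mRNAs when cells cool, among them transcripts of the circadian clock. In the cornea the 5 AL libraries held 791, 771, 842, 962 and 748 normalized counts of *Cirbp*. The 5 CR libraries held 2466, 2322, 1790, 1536 and 1123 (CR 1, 2, 3, 4 and 7). Every CR library lay above every AL library, as for 2.08% of all tested genes, and the CR libraries were spread more widely than the AL libraries. The means were 823 ± 85.2 (SD, n = 5) in AL and 1847 ± 555 (n = 5) in CR. Its log2 change was 1.12 (SE 0.18, 95% interval 0.74 to 1.49, limma adjusted p = 0.0044), and 5 of 5 CR libraries were higher. In RPM (reads per 1000000 counted reads) this was 71.0 against 161.

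In the conjunctiva the 4 AL libraries (AL 1, 3, 4 and 5) held 939, 698, 872 and 707 normalized counts of *Cirbp*. The 5 CR libraries held 2610, 1489, 1412, 1338 and 859 (CR 1 to 5). CR 5 lay within the AL range, and the other 4 CR libraries lay above every AL library, while CR 1 stood well above the rest. At least 4 of 5 CR libraries lay above all AL libraries for 7.16% of the genes tested there. The means were 804 ± 121 (SD, n = 4) and 1542 ± 646 (n = 5), and the log2 change was 0.86 (SE 0.25, 95% interval 0.32 to 1.40, limma adjusted p = 0.233). Without CR 5 the change was 1.04 with an adjusted p of 0.024 by limma, and *Cirbp* was then called. Without CR 1 it was 0.64, with an adjusted p of 0.297 by limma. Leaving out each library in turn gave limma adjusted p from 0.024 to 0.465.

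The change of *Cirbp* in the conjunctiva minus that in the cornea was −0.26 (95% interval −0.89 to 0.37, adjusted p = 0.874 from the limma fits). Over all genes tested in both tissues, 2 of 11929 (0.0168%) differed between tissues at an adjusted p under 0.05. They were *Aqp5* and *Cpt1a*, named after their values were seen. The level of *Cirbp* in AL mice was 71.0 ± 7.66 RPM (SD, n = 5) in the cornea and 68.2 ± 11.3 RPM (n = 4) in the conjunctiva, a description with no test because the tables were scaled apart.

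The share of genes at 0 varied among the same libraries. Among the CR corneas it was lowest in CR 1 (39.9%), where *Cirbp* was highest, and highest in CR 7 (47.6%), where *Cirbp* was lowest, but CR 2 combined 46.1% with 2322 counts. Among the CR conjunctivas it was highest in CR 5 (40.1%), where *Cirbp* was lowest. With that share in the model the change of *Cirbp* was 1.23 in the cornea (limma adjusted p = 0.0278) and 1.05 in the conjunctiva (limma adjusted p = 0.182). Without it the changes were 1.12 and 0.86. The share was itself higher on average in CR in both tissues, and its part in the change of *Cirbp* was not tested.

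**Figure D2:**
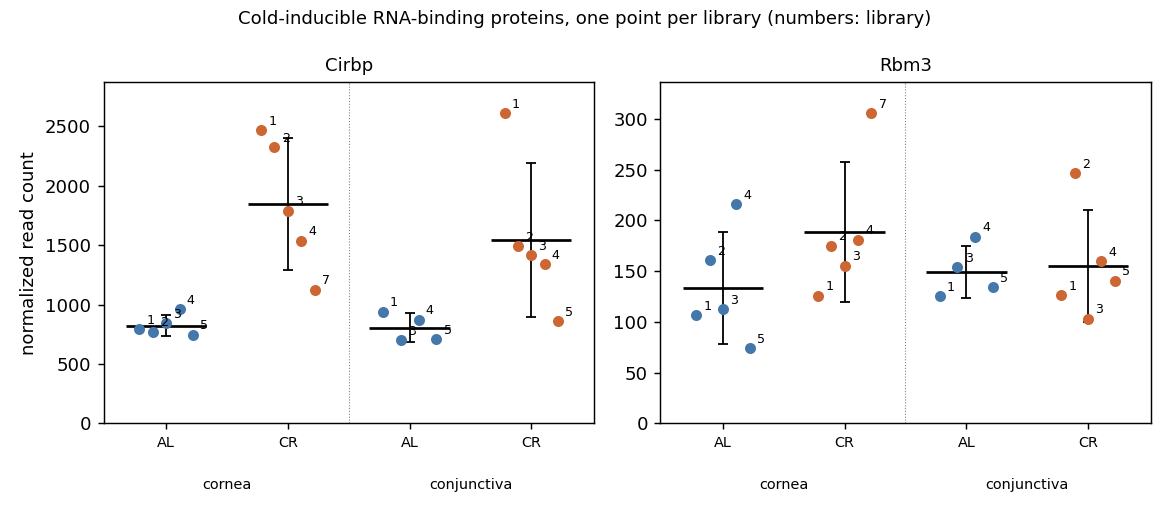
Normalized read counts of *Cirbp* and *Rbm3* in each library, with AL in blue and CR in orange, the cornea to the left and the conjunctiva to the right of the dotted line. Numbers are library numbers, horizontal lines are means and bars are SDs. For *Cirbp* the lowest CR cornea (1123) lies above the highest AL cornea (962), and for *Rbm3* the groups overlap in both tissues.

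*Rbm3* encodes the other cold-inducible protein of this family, which binds mRNAs and ribosomes and is known for its part in synapse maintenance on cooling. In the cornea the AL libraries held 107, 161, 112, 216 and 74.2 normalized counts of *Rbm3*, and the CR libraries 126, 175, 155, 181 and 306. The groups overlapped, with CR 7 the highest of all 10 libraries and AL 5 the lowest. Its log2 change in the cornea was 0.52 (SE 0.28, 95% interval −0.06 to 1.10, limma adjusted p = 0.337). With the percentage of genes at 0 in the model it was 0.07 (limma adjusted p = 0.957). Leaving out 1 library gave 0.33 (without CR 7 or AL 5) to 0.71 (without AL 4), with limma adjusted p from 0.102 to 0.606.

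In the conjunctiva *Rbm3* stood at 125, 154, 184 and 134 normalized counts in AL and at 127, 247, 103, 160 and 141 in CR. The CR libraries lay on both sides of the AL range. It changed by 0.01 on the log2 scale (SE 0.26, 95% interval −0.53 to 0.55, limma adjusted p = 0.994). The change in the conjunctiva minus that in the cornea was −0.51 (95% interval −1.28 to 0.25, adjusted p = 0.782). The conjunctival interval as a fold was 0.692 to 1.46 for *Rbm3* and 1.25 to 2.63 for *Cirbp*. These overlap, and the difference between the genes was not tested. *Rbm3* was counted at 72 to 329 reads a library against 622 to 2679 for *Cirbp*.

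*Cirbp* and *Rbm3* did not vary together within groups. After centring each gene on the mean of its tissue and diet group, Pearson's r between them over the 19 libraries was −0.22, and *Rbm3* ranked 8642 by r with *Cirbp* among the 11929 genes tested in both tissues. In cornea CR 7 *Rbm3* was at its highest and *Cirbp* at its lowest among the CR libraries. These libraries share scaling, tissue pieces and depth within each table, so r is a description and no p is given.

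*Hspa1a* and *Hspa1b* encode the major stress-inducible HSP70, nearly silent in unstressed cells of many kinds and strongly induced by heat. *Hspa1a* in the cornea was at 2231, 1318, 1523, 2381 and 2443 normalized counts in AL, and at 2521, 1364, 2016, 2052 and 1388 in CR. Both diets held low and high libraries over the same range. On the log2 scale it changed by −0.08 (SE 0.21, 95% interval −0.54 to 0.38, limma adjusted p = 0.874). In the conjunctiva *Hspa1a* was at 2138, 2171, 1916 and 1878 in AL and at 2446, 1855, 1847, 1699 and 1763 in CR, with CR 1 apart from the other CR libraries. Its log2 change there was −0.09 (SE 0.14, 95% interval −0.38 to 0.21, limma adjusted p = 0.894).

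*Hspa1b* was the steadiest member in the cornea. The AL libraries held 6348, 5677, 5745, 5890 and 6214 normalized counts and the CR libraries 5710, 5493, 6691, 5586 and 6328. The SD of its log2 values within diets was 0.10, and 1.36% of the tested genes had a smaller one. The log2 change was −0.01 (SE 0.09, 95% interval −0.20 to 0.19, limma adjusted p = 0.982). In the conjunctiva it was at 4800, 5055, 3305 and 4542 in AL and at 4484, 4036, 3755, 3330 and 4353 in CR, every CR library within the AL range. The log2 change there was −0.14 (SE 0.15, 95% interval −0.46 to 0.19, limma adjusted p = 0.831).

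Reads of this pair cannot always be told apart. Of all 75-base windows, the read length, in the longest coding transcript of GENCODE M21, 61.7% in *Hspa1a* and 55.8% in *Hspa1b* also occurred in another gene, and 1524 windows occurred in both. In the last 500 bases, where a library primed from the poly(A) tail would read, 0 windows of either gene were shared. The labels and the study's methods name different library kits, so the part of the transcript that was read is not settled. *Hspa1a* also overlaps *Gm20481* on the opposite strand, and whether counting used strand is not given in the sources used here. Summed, the pair changed by −0.02 in the cornea (95% interval −0.23 to 0.19) and by −0.12 in the conjunctiva (−0.43 to 0.18), with limma adjusted p of 0.936 and 0.843. *Hspa1a* took 24.6% ± 4.45 (SD, n = 5) of the sum in AL and 23.7% ± 5.14 (n = 5) in CR corneas (exact permutation p = 0.786), and 31.7% ± 3.39 (n = 4) and 32.5% ± 2.46 (n = 5) in the conjunctiva (exact permutation p = 0.683).

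*Hsph1* encodes HSP110, the nucleotide exchange factor that lets HSP70 release its clients. In the cornea it was at 172, 200, 134, 199 and 159 normalized counts in AL and at 108, 138, 170, 116 and 127 in CR. The CR libraries were mostly lower, 4 of them below 4 of the 5 AL libraries, but AL 3 and CR 3 crossed. Its log2 change in the cornea was −0.39 (SE 0.19, 95% interval −0.79 to 0.02, limma adjusted p = 0.296). In the conjunctiva *Hsph1* was at 286, 406, 485 and 427 in AL and at 227, 273, 454, 371 and 307 in CR. The groups overlapped, and the log2 change was −0.31 (SE 0.21, 95% interval −0.76 to 0.14, limma adjusted p = 0.691). No 75-base window of *Hsph1* occurred in another gene.

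*Dnajb1* encodes HSP40, the J-domain protein that hands clients to HSP70 and is itself induced by heat. In the cornea it was at 1033, 1163, 957, 891 and 1012 normalized counts in AL and at 897, 1083, 1064, 954 and 1437 in CR. CR 7 was the highest of all and the other libraries of both diets mixed. Its log2 change was 0.09 (SE 0.13, 95% interval −0.18 to 0.36, limma adjusted p = 0.75). In the conjunctiva *Dnajb1* was at 1078, 1189, 806 and 971 in AL and at 822, 960, 894, 733 and 1042 in CR, a change of −0.18 (SE 0.15, 95% interval −0.50 to 0.15, limma adjusted p = 0.766). Both groups spanned much the same range there.

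*Hsp90aa1* encodes the inducible cytosolic HSP90, which holds steroid receptors, kinases and inactive HSF1. In the cornea it was at 2524, 2463, 2273, 2780 and 2643 normalized counts in AL and at 2211, 2344, 2441, 2474 and 3440 in CR. CR 7 stood apart above the other CR libraries. The log2 change was 0.01 (SE 0.12, 95% interval −0.24 to 0.26, limma adjusted p = 0.974), and −0.10 without CR 7. In the conjunctiva it was at 2249, 3173, 2714 and 2576 in AL and at 2420, 2159, 2206, 2888 and 3454 in CR, a change of −0.04 (SE 0.16, 95% interval −0.39 to 0.30, limma adjusted p = 0.960). The highest library there was CR and the lowest 2 were CR as well. Of its windows 53.1% occurred in another gene, mostly the pseudogene *Gm12346*, but 0 in the last 500 bases.

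*Hspa8* encodes HSC70, the constitutive HSP70 that folds new proteins and uncoats clathrin vesicles. In the cornea it was at 568, 664, 583, 541 and 628 normalized counts in AL and at 556, 485, 549, 578 and 698 in CR. The diets mixed, and the log2 change was −0.06 (SE 0.13, 95% interval −0.33 to 0.20, limma adjusted p = 0.821). In the conjunctiva it was at 1249, 1485, 1314 and 1432 in AL and at 1155, 1051, 1296, 1288 and 1128 in CR. The 3 lowest libraries were CR, and 2 CR libraries lay within the AL range. The log2 change there was −0.21 (SE 0.13, 95% interval −0.49 to 0.06, limma adjusted p = 0.646). *Hspa8* had the largest share of windows that occurred in other genes, 68.6% overall and 83.8% in the last 500 bases, mainly in *Gm15459* and *Gm26825*, and it contains the small nucleolar RNAs *Snord14c*, *Snord14d* and *Snord14e*, so its counts are uncertain.

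*Hspb1* encodes HSP27 (HSP25 in the mouse), a small heat shock protein that keeps unfolded proteins soluble and binds actin. In the cornea it was at 10955, 9036, 9592, 5752 and 9858 normalized counts in AL and at 7224, 8530, 7388, 9310 and 5056 in CR. AL 4 was low among the AL libraries and CR 7 was the lowest of all, and the groups overlapped. Its log2 change was −0.27 (SE 0.18, 95% interval −0.66 to 0.13, limma adjusted p = 0.464). Without AL 4 it was −0.42 (limma adjusted p = 0.0834). In the conjunctiva *Hspb1* was at 1708, 1622, 1658 and 2150 in AL and at 1677, 1983, 2086, 2229 and 1483 in CR, a change of 0.08 (SE 0.15, 95% interval −0.24 to 0.40, limma adjusted p = 0.913). Its CR libraries lay on both sides of the AL range. Summed skeletal muscle markers, from a tissue rich in small heat shock proteins, ranged from 17865 to 185134 normalized counts among conjunctivas. Their part in the conjunctival values was not tested. Of the *Hspb1* windows 47.3% occurred in the pseudogene *Hsp25-ps1*, and 10.3% of those in the last 500 bases in another gene.

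**Figure D3:**
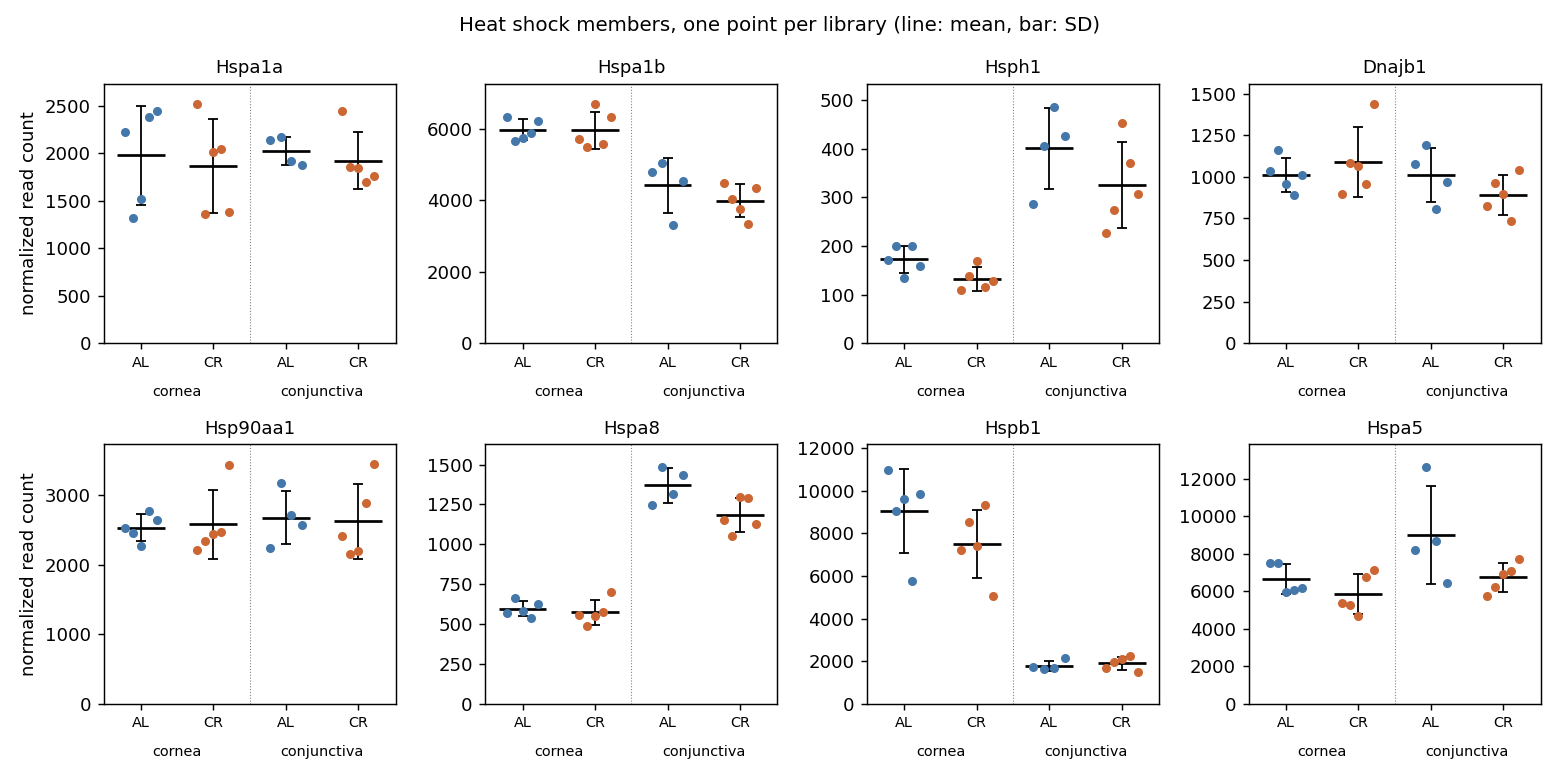
Normalized read counts of the 8 heat shock genes in each library, with AL in blue and CR in orange, horizontal lines for means and bars for SDs. The dotted line parts the cornea from the conjunctiva, which were scaled in separate tables. AL and CR points overlap in every panel, and single libraries stand out for *Hsp90aa1* (cornea CR 7, 3440) and *Hspa5* (conjunctiva AL 3, 12641).

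*Hspa5* encodes BiP, which folds proteins entering the secretory path and restrains the sensors of the unfolded protein response. In the cornea it was at 7525, 7514, 5935, 6078 and 6193 normalized counts in AL and at 5381, 5277, 4680, 6783 and 7142 in CR. The lowest 3 libraries were CR and the highest 2 were AL. The log2 change was −0.19 (SE 0.12, 95% interval −0.45 to 0.06, limma adjusted p = 0.418). In the conjunctiva *Hspa5* was at 8207, 12641, 8661 and 6422 in AL and at 5719, 6250, 6896, 7050 and 7736 in CR. AL 3 was far above all others, and AL 5 lay among the CR libraries.

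The log2 change of *Hspa5* in the conjunctiva was −0.38 (SE 0.18, 95% interval −0.75 to −0.01), with an unadjusted limma p of 0.0462 and an adjusted p of 0.516. It was −0.20 without AL 3. In that library, 18 of the 30 tested genes of the endoplasmic reticulum chaperone list were at their highest among the 4 AL conjunctivas, and 9 were at their highest of all 9 conjunctivas. Conjunctiva CR 5 was the highest library for 8 of the 30. The share of all tested genes that were highest in AL 3 or CR 5 was not counted. No 75-base window of *Hspa5* occurred in another gene.

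Across the 8 heat shock genes, the 95% intervals of the fold change lay between 0.578 and 1.30 for the cornea and between 0.589 and 1.32 for the conjunctiva. Their limma adjusted p ran from 0.296 to 0.982 for the cornea and from 0.516 to 0.960 for the conjunctiva. The lower interval ends of *Hsph1* in both tissues, of *Hspb1* in the cornea and of *Hspa5* in the conjunctiva lay past a 1.5-fold fall, which the data therefore do not leave out for these. The log2 changes were −0.07 at the median in the cornea, where 2 genes were higher and 6 lower, and −0.16 in the conjunctiva, where 1 was higher and 7 lower. By sign alone, 53.1% of all genes tested in the cornea and 52.0% in the conjunctiva were lower.

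The members differed in level between the tissues, in RPM and with no test. *Hspb1* was at 779 (AL) and 653 (CR) in the cornea and at 151 (AL) and 151 (CR) in the conjunctiva, the widest gap of the 10. *Hspa8* went the other way, at 51.5 and 49.7 in the cornea and 116 and 94.3 in the conjunctiva, as did *Hsph1*, at 14.9 and 11.5 against 33.9 and 26.1. *Hsp90aa1* was near level, at 219 and 224 in the cornea and 226 and 207 in the conjunctiva. Levels were not compared between genes, because the kit and so the use of transcript length is not settled.

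Within groups the heat shock members ran against *Cirbp* in part. Over the 19 libraries, centred on the mean of each tissue and diet, r with *Cirbp* was −0.68 for *Hsp90aa1*, −0.56 for *Dnajb1*, −0.53 for *Hspa5* and −0.51 for *Hspa8*, and 0.40 for *Hspa1a*. In cornea CR 7, *Dnajb1*, *Hsp90aa1*, *Hspa8* and *Rbm3* were at their highest of the 10 corneas while *Cirbp* was at its lowest among CR. In conjunctiva CR 5, *Hsp90aa1* was likewise at its highest of the 9 conjunctivas (3454) and *Cirbp* at its lowest among CR (859). These 2 libraries also had the largest shares of genes at 0 in their tissue, and the part of that share in r was not tested.

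The 5 genes most like *Cirbp* by the same measure were *Parp6* (r = 0.87), *Mir7079* (0.80), *Tubg2* (0.80), *Tef* (0.79) and *Marveld1* (0.79). *Mir7079* and *Tubg2* are counted near the floor, at 0 in both cornea CR 7 and conjunctiva CR 5. *Tef*, a PAR bZIP transcription factor of the clock output, was the one of the 5 that was also called for diet. It was at 803 to 1336 normalized counts in AL corneas and 2695 to 4237 in CR corneas, a change of 1.72 (SE 0.15, limma adjusted p = 1.25e-05). In the conjunctiva it was at 815 to 1451 in AL and 2426 to 4798 in CR, a change of 1.80 (SE 0.22, limma adjusted p = 0.00214). *Tef*, like *Cirbp*, was lowest in CR 7 among CR corneas and in CR 5 among CR conjunctivas, and highest in CR 1 in both tissues. The same held for *Parp6*, *Mir7079*, *Tubg2* and *Marveld1*, and all 5 were chosen by their r with *Cirbp*. The genes most like *Hsph1* were *Ndufs4* (r = 0.81), *Tfip11* (0.75), *Exo1* (0.73), *Lypd1* (0.71) and *Dlg2* (0.69).

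**Figure D4:**
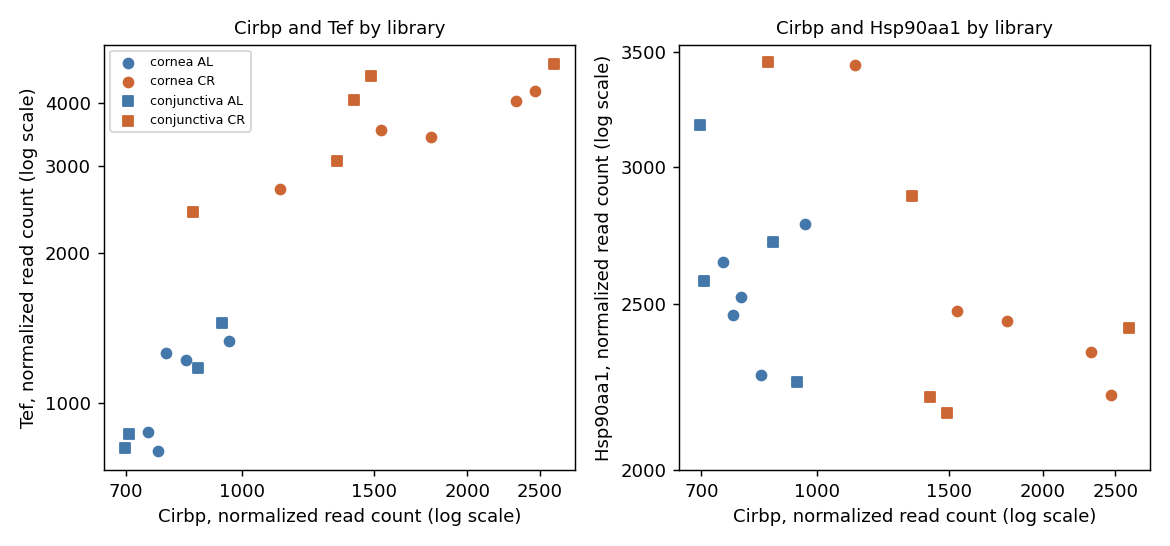
Normalized read count of *Cirbp* against *Tef* and against *Hsp90aa1* in each of the 19 libraries, both axes on log scales, circles for the cornea and squares for the conjunctiva, AL in blue and CR in orange. *Tef* is higher in all 10 CR libraries than in any AL library of its tissue and follows *Cirbp* among them, and the highest *Hsp90aa1* values (3440 and 3454) stand in CR libraries with the lowest *Cirbp* of their group (1123 and 859).

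Among wider lists, the 38 cytosolic heat shock and HSF1 genes other than members held 33 tested in the cornea, of which 3 passed an adjusted p under 0.05 upward and 0 downward by limma (4 upward and 5 downward at an unadjusted p under 0.05, where all genes gave 18.1%), against 1.53% of all genes. *Dnajb4*, a J-domain partner of HSP70, was at 276 to 411 normalized counts in AL and 488 to 759 in CR corneas. The groups did not overlap, as for 2.08% of tested genes in this direction, and the change was 0.97 (SE 0.15, limma adjusted p = 0.00212). *Fkbp5*, an HSP90 co-chaperone of the glucocorticoid receptor and a known glucocorticoid target, was at 85.5 to 237 in AL and 231 to 537 in CR corneas, a change of 1.36 (SE 0.25, limma adjusted p = 0.0137). Only the lowest CR cornea lay within the AL range for *Fkbp5*. *Cryab*, the small heat shock protein alpha-B crystallin, was at 1742 to 2593 in AL and 2533 to 3004 in CR, a change of 0.45 (SE 0.11, limma adjusted p = 0.0495) that was under the fold threshold. The median of the list in the cornea was −0.09. *Hspb8*, another small heat shock protein, had a change of 0.94 with a limma adjusted p of 0.0537. Among the lower genes of the list, the smallest limma adjusted p were 0.0890 for *Ahsa1* (change −0.58), 0.104 for *Stip1* (−0.54) and 0.121 for *Bag3* (−0.52). Next were 0.209 for *Hspa4* (−0.52) and 0.220 for *Dnajb2* (−0.48). *Hspb8* and these lower genes were named after their values were seen.

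In the conjunctiva 37 of the cytosolic list were tested and 0 passed, where 0.359% of all genes were called. A limma unadjusted p under 0.05 was reached by 1 gene, *Fkbp5*, against 9.4% of all genes. *Fkbp5* was at 281 to 348 normalized counts in AL and 417 to 694 in CR, a change of 0.83 (SE 0.18, limma adjusted p = 0.0594). It was above in 5 of 5 CR libraries, as for 1.92% of all genes tested there. *Dnajb4* changed by 0.32 (adjusted p = 0.601) and *Cryab* by 0.09 (adjusted p = 0.979) there by limma, the latter with conjunctivas from 1039 to 6974 counts. *Hsf1* itself was at 95.2 and 105 in the cornea and 201 and 144 in the conjunctiva (AL and CR means), with limma adjusted p of 0.857 and 0.602.

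None of the genes in the other 6 lists passed an adjusted p under 0.05 by limma in either tissue. An unadjusted p under 0.05, counted in what follows, was reached by 18.1% of all genes in the cornea and 9.4% in the conjunctiva. Of the 14 chaperonin and prefoldin subunits, which fold actin and tubulin, 2 had an unadjusted p under 0.05 in the cornea and 0 in the conjunctiva. Of the 12 mitochondrial chaperones and proteases it was 1 in each tissue. *Hspa9*, the mitochondrial HSP70, was higher in 5 of 5 CR corneas, at 1239 to 1352 against 977 to 1201 in AL, a change of 0.23 with a limma adjusted p of 0.239 (2.08% of genes did not overlap in this direction). The 29 endoplasmic reticulum genes tested in the cornea held 2 such genes and the 30 in the conjunctiva held 4. Among the latter *Herpud1*, of the degradation machinery, was higher in 5 of 5 CR libraries (1244 to 1823 in the means, limma adjusted p = 0.139). *Hyou1*, an HSP110 relative that works with BiP, was lower in 5 of 5 (255 to 133, limma adjusted p = 0.188). Such a lack of overlap held for 1.92% of conjunctival genes upward and 1.95% downward.

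Of the 13 cold shock domain and related RNA-binding genes tested in the cornea, 3 had an unadjusted p under 0.05, and of the 14 in the conjunctiva 2. *Hnrnpa1*, a splicing regulator, had means of 186 (AL) and 290 (CR) in the cornea and 405 and 298 in the conjunctiva, with limma adjusted p of 0.116 and 0.528. The 18 SR splicing factors and CLK kinases, some of them known for temperature-dependent activity, held 3 such genes in the cornea and 2 in the conjunctiva. *Srpk2*, an SR protein kinase, was higher in 5 of 5 CR conjunctivas (1415 to 2118 in the means, limma adjusted p = 0.0767). *Srsf5* and *Srsf7*, both SR splicing factors, were lower in 5 of 5 there (2382 to 1885 and 1359 to 1171 in the means, limma adjusted p of 0.409 and 0.624), beside 1.92% of genes without overlap upward and 1.95% downward. In the cornea *Srsf7* went the other way, higher in 5 of 5 CR libraries (780 to 948 in the means, limma adjusted p = 0.220). Such a lack of overlap upward held for 2.08% of corneal genes. The immediate early genes, often raised by handling of tissue, held 5 of 19 with an unadjusted p under 0.05 in the cornea (18.1% of all genes), all higher, and 5 of 22 in the conjunctiva (9.4% of all genes), 2 higher and 3 lower. Their summed level was 49559 to 51676 in AL and 51356 to 63801 in CR corneas (exact permutation p = 0.0238), and 30386 to 42437 and 31470 to 43155 in the conjunctiva (exact permutation p = 0.857). *Klf4* held the largest part of the corneal sum, with means of 24210 (AL) and 28394 (CR). By sign 15 of the 19 tested genes were higher in CR corneas and 4 were lower. The part of the difference between the corneal sums in the values of the members was not tested.

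**Figure D5:**
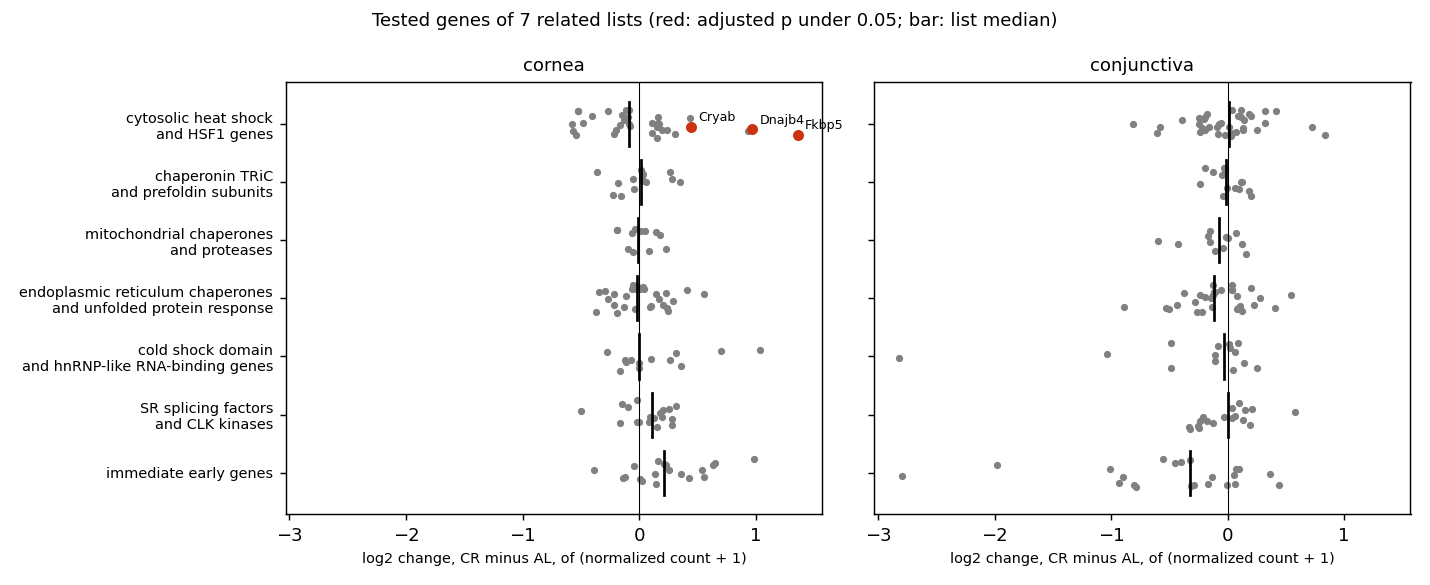
Log2 change under CR, of (normalized count + 1), of every tested gene of 7 lists related to the members, in the cornea and the conjunctiva, with a vertical bar at the median of each list. Points in red passed an adjusted p under 0.05 and are *Cryab*, *Dnajb4* and *Fkbp5* in the cornea, while no point is red in the conjunctiva.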

How the data were processed

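RNA from cornea and conjunctiva was sequenced as single reads of 75 bases. By the study's methods the authors trimmed reads with cutadapt, aligned them to mm10 with STAR, counted them with HTSeq on ROSALIND and scaled them with DESeq2 size factors; tool versions are not given in the sources used here. The submitters' processing notes name the build GRCm39 instead. The labels name a stranded Illumina kit and the methods an oligo(dT)-primed Lexogen kit, which was not settled. The deposited values are log2(normalized count + 1), scaled by the authors in a table per tissue, and 100% of them gave whole reads (within 0.01) when turned back. Each table listed 24557 features, and the 5 with a repeated symbol were not used. No columns were left unmapped.

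Libraries were grouped by their labels, and same-numbered AL and CR libraries are different mice. Diets were compared per tissue with limma 3.58.1 (trend and robust moderation, statmod 1.5.0, R 4.3.3) on log2(normalized count + 1), for genes averaging 10 normalized counts or more. The difference between tissues was tested as the gap between the 2 log2 changes divided by its SE, with Satterthwaite degrees of freedom. That test takes the 2 fits as independent, while by the study's methods several tissues came from each mouse. Adjusted p-values are Benjamini-Hochberg over all tested genes, and exact permutation tests are two-sided. The labels give neither the cohort nor the pen of a mouse, so these could not be modelled. The p-values set the difference between diets against the spread between these libraries, taken as independent. Where libraries shared a pen or cohort, the p-values may be too small. A fold on this scale understates the change of low genes. Counted reads, 10354125 to 14681223 a library, set the precision, and the limit of 3 reads for a count of 0 covers counting error only.

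All 10 members were described in full. From each of 7 related lists, the genes to name were those past an adjusted p of 0.05 in either tissue and the 3 with the smallest p in each tissue, of which some are given. Genes most like *Cirbp* and *Hsph1* were the 5 with the highest Pearson r over 19 libraries after centring on tissue and diet means. Cell type markers, in 10 lists with the immediate early genes apart, were summed per library. Sums for conjunctival epithelium, goblet cells, endothelium, skeletal muscle, fat cells and Schwann cells with melanocytes had exact permutation p from 0.206 to 0.952 in both tissues. Fibroblast markers had p = 1 in the cornea, corneal epithelium markers p = 0.190 in the conjunctiva, and lacrimal gland markers p = 0.881 in the cornea and, with means of 354 (AL) and 776 (CR), p = 0.0238 in the conjunctiva, all exact. Most of the conjunctival lacrimal gland sum was *Ltf*, with means of 315 (AL) and 760 (CR). It was the only 1 of those 11 markers that passed the filter on low values in the conjunctiva. The members and lists were chosen with earlier results of these data known. Promoters came from RefSeq (GRCm38.p6) and shared windows from GENCODE M21 transcripts. The fit was checked on simulated counts with known changes. The alternatives tried were no filter or one at 50, pseudocounts of 0.5 and 10, quantile and TMM scaling (TMM in base R), array weights, voom on the recovered reads, the percentage of undetected genes as a covariate, the replicate number as a block, a tissue difference taken by shared title, and dropping each library. The authors' comparisons are not part of the tables used.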

Additional observations from a re-analysis of the deposited data

Results flagged for a closer look

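In 3 of the 40 groups formed by the 10 members in 2 tissues and 2 diets, 1 library stood apart from the others by Dixon's criterion, which chance meets in about 1 of 20 groups. *Hsp90aa1* was at 3440 normalized counts in cornea CR 7, where the other CR corneas held 2211 to 2474. *Hspa1a* was at 2446 normalized counts in conjunctiva CR 1, where the other CR conjunctivas held 1699 to 1855. *Hspb1* was at 2150 normalized counts in conjunctiva AL 5, where the other AL conjunctivas held 1622 to 1708. Leaving out the library in question gave changes of −0.10 for *Hsp90aa1* in the cornea, −0.18 for *Hspa1a* in the conjunctiva and 0.17 for *Hspb1* in the conjunctiva, none with a limma adjusted p under 0.05.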

How the results depend on the processing

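*Cirbp* stayed called in the cornea under all 10 processing alternatives (log2 change 1.10 to 1.25, limma adjusted p 1.26e-05 to 0.0278) and without any 1 library (0.997 to 1.28), and was the only member called there each time. In the conjunctiva 0 members were called under the processing alternatives, and 0 to 1 without a library. There *Cirbp* ran from 0.64 to 1.04 (limma adjusted p 0.024 to 0.465), the called value being the one without CR 5. The other members kept an adjusted p over 0.05 by limma throughout, and changes near 0 switched sign. Values that turned in the cornea were as follows. For *Hsp90aa1* the change was −0.0089 with quantile normalization, −0.0105 with array weights, −0.16 with the percentage of undetected genes as a covariate and −0.082 with the replicate block. For *Hspa1b* it was 0.023 (quantile), 0.00077 (TMM) and 0.0018 (voom), for *Dnajb1* −0.0057 (covariate) and −0.0142 (block), for *Hspa1a* 0.0093 (covariate) and 0.10 (block), for *Hspb1* 0.043 (covariate), and for the *Hspa1a* and *Hspa1b* sum 0.0044 (quantile) and 0.0143 (block). In the conjunctiva they were *Hspb1* at −0.017 (quantile), *Rbm3* at −0.036 (covariate) and −0.17 (block), and *Hsp90aa1* at 0.023 (block). The cause of these turns was not tested. *Rbm3* in the cornea kept its sign, at 0.07 with the covariate and 0.14 with the block. Without 1 library the ranges in the cornea were −0.098 to 0.062 for *Hsp90aa1*, −0.049 to 0.022 for *Hspa1b*, −0.22 to 0.023 for *Hspa1a*, −0.016 to 0.15 for *Dnajb1*, −0.42 to −0.13 for *Hspb1*, 0.33 to 0.71 for *Rbm3* and −0.067 to 0.025 for the sum, and in the conjunctiva −0.15 to 0.044 for *Hsp90aa1* and −0.17 to 0.14 for *Rbm3*.

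The number of genes called in the cornea, 150, became 705 with array weights, 62 with the covariate, 46 with the replicate block and 53 to 536 without a library. The extremes came without AL 5 and AL 4. In the conjunctiva 50 became 149 with array weights, 10 with the block and 26 to 127 without a library, from CR 2 and CR 3. Genes that differed between tissues, 2, became 18 with array weights, 0 with the covariate, 1 with the block, 0 per shared title and 0 to 7 without a library. The higher share of genes at 0 in CR corneas, 3.84 percentage points, ran from 3.04 to 4.995 without a library and passed an exact permutation test at 0.05 without AL 4 or CR 1.

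The replicate numbers did not pair AL and CR libraries: deviations of same-numbered libraries from their group means correlated at −0.30 to 0.29 for the cornea and −0.06 to 0.05 for the conjunctiva, so the block is given only as a check, under which no member's call changed. With 4 or 5 libraries a group, a 1.5-fold fall of *Hsph1*, of *Hspb1* in the cornea or of *Hspa5* in the conjunctiva was not resolved.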

Other observations

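The CR libraries numbered 1, 2, 3 and 4 exist for both tissues. *Cirbp* took the same order in them in both, at 2466, 2322, 1790 and 1536 normalized counts in the cornea and 2610, 1489, 1412 and 1338 in the conjunctiva. *Tef* was highest in CR 1 and next in CR 2 in both tissues, at 4237 and 4045 in the cornea and 4798 and 4540 in the conjunctiva, while CR 3 and CR 4 changed places (3425 and 3529 against 4058 and 3064). The study's methods say that several tissues were taken from each mouse, but the labels do not say that a number marks one mouse. Over all genes tested, the deviations of same-titled CR libraries from their group means correlated at −0.22 to 0.12 between tissues. The AL libraries numbered 1, 3, 4 and 5 held 791, 842, 962 and 748 counts of *Cirbp* in the cornea and 939, 698, 872 and 707 in the conjunctiva, in no shared order. This pattern was noticed in the data and was not tested.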
